A study of Rattus norvegicus with 24 samples.

Results

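The genes described here make, break down and read out cyclic AMP (cAMP). They are the adenylyl cyclases (Adcy genes), the cyclic nucleotide phosphodiesterases (Pde genes with a number and 1 letter), the catalytic and regulatory subunits of protein kinase A (PKA), both Epac exchange factors, and the transcription factors and coactivators of the CREB family. They were chosen by gene symbol from the count table by a rule on names alone, with numbered copies of a symbol left out. The rule found 47 genes among 29539 rows of the table, of which 43 had enough reads to be tested, among 14421 tested genes in all. All 10 cyclases, 6 PKA subunits, 2 Epac genes and 7 CREB family genes were tested, and 18 of 22 phosphodiesterases. The 4 not tested, Pde6a, Pde6c, Pde6g and Pde6h, belong to the photoreceptor type of phosphodiesterase and had at most 15 reads in any library.

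RNA of rat brain was sequenced as 24 libraries, 8 in each of 3 groups named Normal Control, Vehicle and SKF. The series concerns stab wounds of the forebrain, and SKF stands for SKF-81297, an agonist of D1-like dopamine receptors that was injected into the peritoneum daily for 3 days, with the first dose 1 h after injury. Vehicle libraries are taken to be injured brain with carrier injections and SKF libraries injured brain with the agonist, a reading of the series text, since each sample's own label states only its group name and that the tissue is brain. Strain, age, sex, the piece of brain taken, the time of collection, and whether Normal Control animals had any operation are not stated there. Nothing in the labels says that the 8 libraries of a group came from separate animals, so p-values measure the spread between these libraries.

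Cyclases convert ATP to cAMP when the stimulatory G protein of a receptor binds them, and inhibitory G proteins restrain several of them. D1-like dopamine receptors signal through the stimulatory route, which in the striatum runs mainly through the cyclase Adcy5. cAMP frees the catalytic subunits of PKA from their regulatory subunits and opens the guanine exchange factors Epac1 (Rapgef3) and Epac2 (Rapgef4), while phosphodiesterases hydrolyse cAMP, cGMP or both. Freed PKA phosphorylates CREB, which binds cAMP response elements in promoters and recruits coactivators of the Crtc family.

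Libraries held between 8911339 and 12383368 counts, and the typical gene-level variation between libraries of a group was 16.2%. Levels are library-scaled counts (CPM) on TMM-scaled library sizes when libraries are compared and TPM, which also corrects for gene length, when genes are compared. A gene is called higher or lower when its adjusted p was under 0.05. Of the markers used to check the tissue label, all 10 markers of general neurons, 8 of astrocytes and 8 of oligodendrocytes were detected in every group. A pair of libraries stand apart from their groups and touch results below. Normal Control 6 had a summed level of 6661 CPM over 11 markers of striatal projection neurons, the main output cells of the striatum, against a median of 1309 CPM in Normal Control. Normal Control 4 had 2156 CPM of 6 skeletal muscle markers, against a group median of 9.73 CPM.

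The first comparison asks how the injured brain given carrier differs from uninjured brain. Among the 43 tested genes 8 were higher in Vehicle than in Normal Control and 19 were lower, and 16 were not called. Across all tested genes 54% were called, 26.9% higher and 27.1% lower, so the members' share called (62.8%) lies near this background while their lower calls outnumber their higher ones. The median log2 fold change of the 43 was -0.21, against -0.01 for all tested genes, and the median size of change without its sign was 0.37 against 0.27. All 8 Vehicle libraries lay above all 8 Normal Control libraries for 4 members and below them for 7, where 11.6% and 7.5% of all tested genes did so (19.1% together). The authors' TPM values with a pseudocount of 1 shift the median of all genes by 0.11 on the log2 scale. On them 13 of 45 members tested were higher and 16 lower. Of all 15280 genes tested there 5491 were higher and 2410 lower (51.7% called). Among all called genes 69.5% were thus higher rather than 49.8%. By at least 2-fold 3 members were higher and 4 lower, against 7.69% and 3.29% of all tested genes. The 4 were Adcy8, Pde10a, Pde1b and Pde7b, and without Normal Control 6 the count of 4 became 1, Adcy8 (3.43% of all tested genes). Pde6b is among the 8 higher members, the 4 above all controls and the 3 higher by 2-fold. It had enough reads to be tested only through the injured libraries. A fit of Vehicle and Normal Control alone leaves it out. There 7 of 42 members were higher and 17 lower (52.1% of all genes called), and 2 were higher by 2-fold (7.06%). All genes are scaled together in each library, so these are relative levels. In whole tissue fewer cells of a type and less RNA per cell cannot be told apart.

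**Figure D1:**
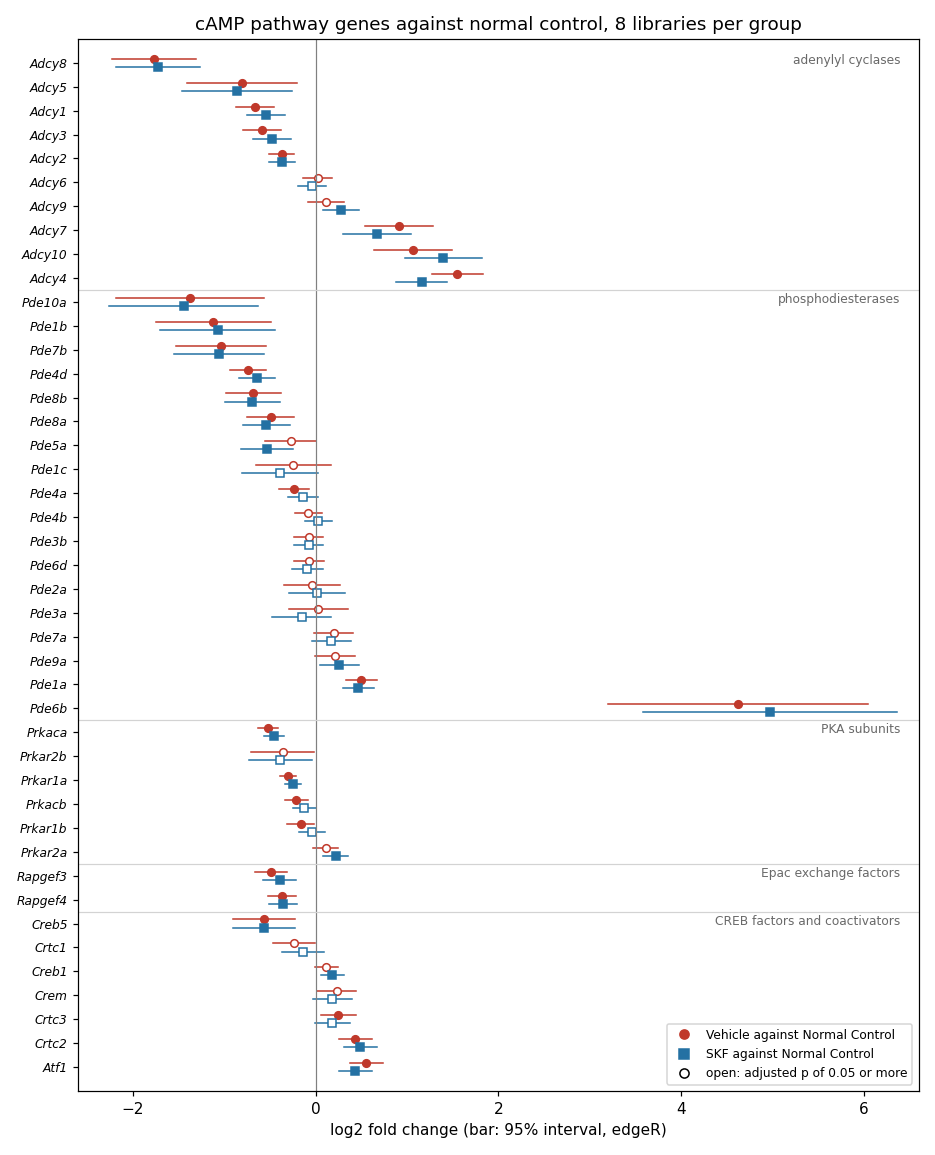
Log2 fold change (x axis) of the 43 tested cAMP pathway genes (y axis, by role) in Vehicle (circles) and SKF (squares) against the same 8 Normal Control libraries; bars are 95% intervals from edgeR and open symbols had an adjusted p of 0.05 or more. Pde6b lies far to the right at 4.63 in Vehicle, Adcy8 is the lowest at -1.77, and both PKA and Epac genes lie mostly left of 0. Pde6b is drawn filled, though it had enough reads to be tested only through the injured libraries.

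Of the 10 cyclases 3 were higher in Vehicle, 5 lower and 2 not called. That is 80% called, against 54% of all tested genes. In Normal Control the most abundant per length was Adcy1, a calcium-stimulated cyclase of neurons, with a median of 250 TPM (range 214 to 326). Adcy5 followed at 120 TPM, with a range (77.6 to 418) that overlaps that of Adcy1, Adcy2 at 81.7 TPM, then Adcy3 and Adcy9, both near 43 TPM with overlapping ranges, Adcy6 at 30.1 TPM and Adcy8 at 18.3 TPM. Adcy7 and Adcy4 lay at 3.12 and 3.07 TPM, with overlapping ranges, and Adcy10, the soluble bicarbonate-sensitive cyclase, at 0.95 TPM. In Vehicle 5 of the 7 more abundant cyclases were lower and all 3 of the scarcest were higher.

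Adcy4, a cyclase of the calcium-insensitive class, had the cyclase family's largest rise. It ranged from 3.16 to 6.08 CPM with a median of 4.15 in Normal Control, and from 9.52 to 18.0 CPM with a median of 13.5 in Vehicle. No Vehicle library overlapped the controls, and the log2 fold change was 1.55 ± 0.14 (SE; n = 8 against 8), 2.93-fold, with an edgeR adjusted p of 2.32e-10. Adcy10 went from a median of 1.92 CPM (0.79 to 3.09) to 4.27 CPM (2.45 to 5.85). Its ranges overlapped at the edge, and the log2 fold change was 1.07 ± 0.21 (adjusted p 9.32e-05). Adcy10 shares part of its locus with Mpc2 in the RefSeq annotation, and since the strand setting of the counting is unknown here, reads of the overlap could fall to either gene. It is 1 of 33 of the 47 members that overlap another gene there, Adcy6 with Tuba1c among them, and the limit holds for all of these. Adcy7, a cyclase known from blood cells and microglia, had a median of 6.39 CPM (3.82 to 9.99) in Normal Control and 12.3 CPM (9.97 to 15.3) in Vehicle. The lowest Vehicle library was about level with the highest control, and the log2 fold change was 0.91 ± 0.18 (adjusted p 0.000121).

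Markers of other cells moved alongside these rises. The summed level of 7 leukocyte markers had a range of 117 to 135 CPM in Normal Control and 319 to 465 CPM in Vehicle, with 7 of 7 called higher. Neutrophil markers, 7 of 7 tested higher, went from a range of 4.23 to 9.96 CPM to one of 130 to 277 CPM. The neutrophil sum covers 10 genes, so its control levels were low. Of the 7, some may have been tested only through their reads in the injured libraries, which would largely fix their direction. For blood-derived monocytes and macrophages 10 of 10 tested markers were higher, and those scarce in Normal Control carry the same limit. Of 7 endothelial markers 3 were called higher and 1 lower, with summed ranges of 205 to 263 CPM in Normal Control and 271 to 399 CPM in Vehicle. Of 8 markers of pericytes and smooth muscle 3 were higher and 3 lower, with summed ranges of 256 to 338 CPM and 336 to 657 CPM. Markers of homeostatic microglia, 9 of which were tested, had 1 higher and 4 lower, and their sums overlapped (289 to 359 CPM in Normal Control and 256 to 382 CPM in Vehicle). Of all these lists 1 marker, Siglech of microglia, was at 0 in every library of a group, Normal Control. The part of these cells in the rises of Adcy4, Adcy7 and Adcy10 was not tested.

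Adcy8, like Adcy1 stimulated by calcium and calmodulin, had the largest fall of all members. Its Normal Control libraries ranged from 13.2 to 39.2 CPM with a median of 33.8, and its Vehicle libraries from 3.88 to 11.0 CPM with a median of 9.09. All Vehicle libraries lay below all controls, of which Normal Control 6 was the lowest. The log2 fold change was -1.77 ± 0.22 (0.29 of the control level, adjusted p 3.30e-07), and -1.88 ± 0.20 without Normal Control 6. Adcy1 fell from a median of 1173 CPM (987 to 1525) to 791 CPM (634 to 992), a log2 fold change of -0.66 ± 0.10. Adcy3, the cyclase of neuronal cilia, changed by -0.59 ± 0.10, and Adcy2 by -0.37 ± 0.07, each with every Vehicle library below every control. Without Normal Control 6 Adcy3 was at -0.44 and Adcy2 at -0.37. Adcy6 (0.02 ± 0.08, adjusted p 0.835) and Adcy9 (0.12 ± 0.10, adjusted p 0.322) were not called, and their 95% intervals ran from -0.13 to 0.18 and from -0.08 to 0.31.

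Of the 18 tested phosphodiesterases 2 were higher, 7 lower and 9 not called, with a median log2 fold change of -0.16. Their share called, 50%, was near the 54% of all tested genes. The 2 higher were Pde1a and Pde6b, the latter with the limit given below. In Normal Control the highest per length were Pde2a (186 TPM), Pde1b (171 TPM) and Pde6d (74.5 TPM), followed by Pde10a at 45.0 TPM. Pde2a, which cGMP activates to degrade cAMP, and Pde6d, a carrier of lipid-modified proteins, were not called (-0.04 ± 0.15 and -0.07 ± 0.08).

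Pde6b, which encodes a catalytic subunit of the rod photoreceptor enzyme, had the largest fold change of all members from near absence. It had 6 reads in all over the 8 Normal Control libraries, 5 of which had 0 reads, and 5 to 59 reads per library in Vehicle, 170 in all. In SKF it had 6 to 47 reads per library, 237 in all. The Vehicle libraries ranged from 0.449 to 6.03 CPM with a median of 1.70, all above the highest control of 0.371 CPM. It passed the filter on low counts only through the injured libraries, and was left out of the fit of Vehicle and Normal Control alone, so its value is given without a test. The fitted log2 fold change was 4.63 ± 0.69, a size that depends on how near-zero controls are treated, since it was 3.51 on log2(TPM + 0.1) and 1.33 on log2(TPM + 1). Without Normal Control 5, which held most of the control reads, it was 5.72. The other catalytic subunit of rods, Pde6a, had 1 read in Normal Control and 8 in Vehicle, and the cone subunit Pde6c had 1 and 5. The inhibitory subunits had 37 reads of Pde6g in Normal Control and 57 in Vehicle, and 68 and 14 reads of Pde6h. Without the filter on low counts Pde6h was called lower in Vehicle (-2.23 ± 0.56, edgeR adjusted p 0.00156), and the other 3 were not.

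Pde1a, a calmodulin-activated enzyme, also rose. Its control libraries lay between 46.4 and 53.5 CPM (median 50.9) and its Vehicle libraries between 53.9 and 90.1 CPM (median 72.4), without overlap, for a log2 fold change of 0.50 ± 0.08 (adjusted p 1.18e-05). Its paralog Pde1b changed the other way and Pde1c, the remaining paralog, was not called (-0.25 ± 0.20, adjusted p 0.311).

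**Figure D2:**
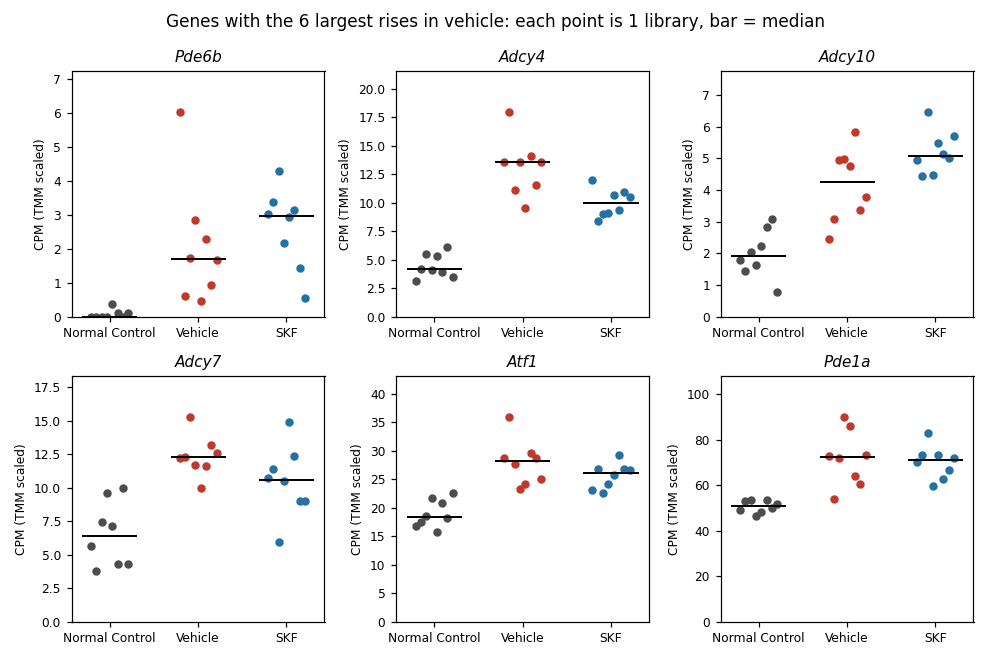
Level in CPM (y axis, from 0) of the 6 members with the largest rises in Vehicle, 1 point per library and a bar at the median, for the 3 groups of 8 (x axis). Pde6b, Adcy4, Atf1 and Pde1a show no overlap between Normal Control and Vehicle, and SKF and Vehicle points overlap in all 6 panels.

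The cAMP-specific Pde4 family differed among its members. Pde4d fell from a median of 49.9 CPM (37.7 to 58.3) to 29.4 CPM (23.6 to 34.4). Every Vehicle library was below every control, with a log2 fold change of -0.74 ± 0.10 (adjusted p 2.27e-07). Pde4a changed by -0.24 ± 0.08 (adjusted p 0.0144), a call that was lost on the TPM scale (-0.11, adjusted p 0.300). Pde4b, the form tied to inflammatory signalling in leukocytes, was not called. It had a median of 59.1 CPM (55.2 to 79.2) in Normal Control and 56.5 CPM (51.7 to 66.2) in Vehicle, a log2 fold change of -0.08 ± 0.07 with a 95% interval from -0.23 to 0.07, and its sign turned on the TPM scale. The high-affinity cAMP enzymes Pde8a (-0.49 ± 0.12) and Pde8b (-0.68 ± 0.15) were both lower. Without Normal Control 6 Pde8a was at -0.56 and Pde8b at -0.51. Pde3a, Pde3b, Pde5a, Pde7a and Pde9a were not called, with log2 fold changes from -0.28 for Pde5a to 0.21 for Pde9a. On both TPM scales Pde7a (0.29 and 0.32) and Pde9a (0.32 and 0.33) were called higher (limma adjusted p at most 0.0154).

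Adcy5, Pde10a, Pde1b and Pde7b are known as genes enriched in the striatum, where Pde10a degrades both cAMP and cGMP in the medium spiny neurons. All 4 were lower in Vehicle, and all 4 were highest in Normal Control 6, the library with the high striatal markers. Pde10a had 446 CPM in Normal Control 6 and 45.8 to 107 CPM in the other Normal Control libraries, against 22.5 to 77.3 CPM in Vehicle (median 39.8). Its log2 fold change was -1.37 ± 0.39 (adjusted p 0.00511) with Normal Control 6 and -0.72 ± 0.23 (adjusted p 0.0134) without it. Pde1b, whose locus overlaps that of the PKA-regulated phosphatase inhibitor Ppp1r1a, had 939 CPM in Normal Control 6 and 156 to 265 CPM in the others, against 85.1 to 206 CPM in Vehicle (median 126). The change was -1.12 ± 0.30 (adjusted p 0.00345), and -0.61 ± 0.16 (adjusted p 0.00201) without that library. Pde7b, a cAMP-specific enzyme, went from a median of 23.6 CPM (14.9 to 59.3) to 13.0 CPM (6.30 to 19.5). Its change was -1.03 ± 0.24 with Normal Control 6 and -0.78 ± 0.19 (adjusted p 0.00118) without it.

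Adcy5 did not keep its call. It had 1020.05 CPM in Normal Control 6 and 176 to 316 CPM in the other 7 controls, and 121 to 329 CPM in Vehicle with a median of 190 against 268. Vehicle and control libraries overlapped widely. With all libraries the log2 fold change was -0.80 ± 0.29 (adjusted p 0.0227), and without Normal Control 6 it was -0.36 ± 0.17 (adjusted p 0.0873). Without Normal Control 6 the members stood at 9 higher and 17 lower, since Pde9a (0.27, adjusted p 0.0245) joined the higher calls and Adcy5 and Prkar1b left the lower ones.

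The striatal content of the libraries varied inside every group. The summed striatal markers ran from 455 to 6661 CPM in Normal Control, from 561 to 1797 CPM in Vehicle and from 1082 to 2179 CPM in SKF. In each group the library with the most striatal marker RNA was also the highest for Adcy5, Pde10a, Pde1b and Pde7b. These were Normal Control 6, Vehicle 8 and SKF 8. In Normal Control and Vehicle the library with the least, Normal Control 1 and Vehicle 4, was the lowest for Adcy5, Pde10a and Pde1b. This did not hold in SKF, where SKF 6 had the least. There SKF 7 was the lowest for Adcy5 and Pde10a, and SKF 2 for Pde1b. Pde7b was lowest in Normal Control 3, Vehicle 4 and SKF 1. Of the 11 tested striatal markers 1, Gnal, was called lower in Vehicle, 0 had a positive value, and their median log2 fold change was -0.92, while the medians of the sum were 1309 and 1225 CPM. The part of striatal tissue share in the falls of Adcy5, Pde10a, Pde1b and Pde7b was not tested.

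**Figure D3:**
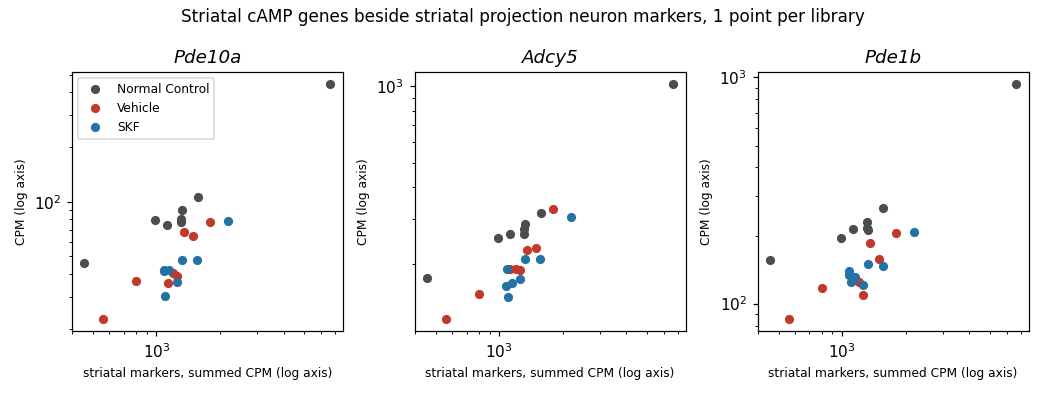
Level of Pde10a, Adcy5 and Pde1b in CPM (y axes, log) against the summed CPM of 11 striatal projection neuron markers (x axes, log), 1 point per library, coloured by group. Normal Control 6 lies alone at the upper right of each panel, at 446, 1020.05 and 939 CPM.

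**Figure D4:**
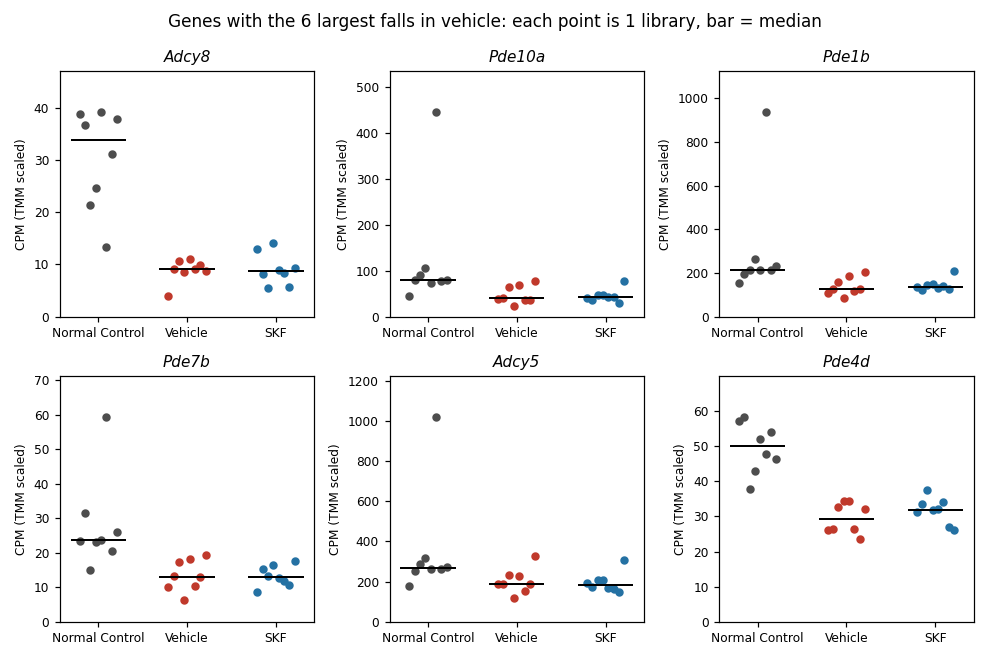
Level in CPM (y axis, from 0) of the 6 members with the largest falls in Vehicle, 1 point per library and a bar at the median, for the 3 groups of 8 (x axis). Adcy8 and Pde4d show no overlap between Normal Control and Vehicle, and the single high control point for Pde10a, Pde1b, Pde7b and Adcy5 is Normal Control 6.

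Of the 6 PKA subunits 4 were lower in Vehicle, both catalytic genes and both type I regulatory genes, and 2 were not called. Of all tested genes 54% were called and 27.1% were lower, and a share of only 6 genes is coarse. The catalytic subunit Prkaca fell from a median of 156 CPM (141 to 175) to 109 CPM (97.2 to 120), a log2 fold change of -0.52 ± 0.05 (0.70 of the control level, adjusted p 5.10e-09). The regulatory subunit Prkar1a fell from 635 CPM (578 to 657) to 499.8 CPM (472 to 552), a change of -0.31 ± 0.04 (adjusted p 1.25e-06). For both genes every Vehicle library lay below every control. Prkacb, the other catalytic gene and the more abundant of the pair at 199 against 79.3 TPM in Normal Control, went from a median of 458 CPM (425 to 594) to 409.7 CPM (371 to 448). Its change was -0.21 ± 0.06 (adjusted p 0.00430), a call lost on the TPM scale (adjusted p 0.237). Prkar1b, the neuronal type I subunit, had -0.17 ± 0.07 (adjusted p 0.0482) and kept its call in 15 of 34 alternatives.

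The type II regulatory subunits, which anchoring proteins hold near their targets, were not called. Prkar2b, the type II form prominent in neurons, had a median of 77.2 CPM (61.4 to 165) in Normal Control, the top value again in Normal Control 6. In Vehicle its median was 64.2 CPM (47.1 to 86.5). Its log2 fold change of -0.36 ± 0.17 (adjusted p 0.0725) was -0.16 without Normal Control 6, and it was called without Normal Control 1, Normal Control 5 or Vehicle 8 and by DESeq2 (adjusted p 0.0402). Prkar2a stood at 0.11 ± 0.07 (adjusted p 0.171), and was called higher on both TPM scales (0.23 and 0.24, limma adjusted p at most 0.0061). Summed per length, the catalytic subunits had a median of 292 TPM (271 to 305) in Normal Control and 254 TPM (228 to 281) in Vehicle, and the regulatory subunits 869 TPM (785 to 921) and 826 TPM (686 to 870), with overlap between groups in both sums. Both Epac genes were lower, as were 27.1% of all tested genes. Rapgef3 fell from 69.7 CPM (60.5 to 83.9) to 52.7 CPM (38.3 to 59.3) without overlap, a log2 fold change of -0.49 ± 0.09 (adjusted p 3.06e-05), and Rapgef4, the more abundant at 223 TPM, changed by -0.37 ± 0.08. Of 10 markers of general neurons 8 were also lower in Vehicle, with summed ranges of 4875 to 6163 CPM in Normal Control and 3051 to 5011 CPM in Vehicle, and 8 of 8 oligodendrocyte markers were lower. Of 8 astrocyte markers 6 were lower and 1 higher, with a median log2 fold change of -0.68. Their summed level went the other way, from 2585 to 3250 CPM in Normal Control to 3960 to 5919 CPM in Vehicle. The part of these cells in the falls of the PKA, Epac and cyclase genes was not tested.

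Among the 7 CREB family genes 3 were higher, 1 lower and 3 not called. Their share called, 57.1%, was near the 54% of all tested genes. Atf1, a close relative of CREB, rose from 18.3 CPM (15.8 to 22.6) to 28.2 CPM (23.4 to 35.9), with every Vehicle library above every control and a log2 fold change of 0.55 ± 0.09 (adjusted p 5.54e-06). The coactivator Crtc2 rose by 0.43 ± 0.09 on the log2 scale (adjusted p 0.000158). Crtc3, a sister coactivator, had 0.25 ± 0.09 (adjusted p 0.0228), a call lost without Normal Control 2, without Vehicle 1 and with sample weights (adjusted p at most 0.0606). Creb5 fell by 0.57 on the log2 scale (SE 0.17, adjusted p 0.00525). Crtc1, the neuronal coactivator and by far the most abundant of the 7 at 87.0 TPM, was not called (-0.24 ± 0.11, adjusted p 0.0734), but was without Normal Control 7 or Vehicle 8 (adjusted p 0.0471 and 0.0153).

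Creb1 itself, the factor that PKA phosphorylates, stood at 39.9 CPM (37.5 to 45.7) in Normal Control and 43.8 CPM (39.5 to 51.8) in Vehicle. The groups overlapped, and the log2 fold change was 0.12 ± 0.06 (adjusted p 0.113, 95% interval from -0.01 to 0.25). On both TPM scales Creb1 was called higher (0.22 and 0.24, limma adjusted p 0.0129 and 0.0125). Crem, which encodes both activators and the short repressor ICER made from an internal cAMP-induced promoter, stood at 18.0 CPM (16.7 to 21.2) and 22.3 CPM (15.5 to 28.4). The Vehicle libraries spread to both sides of the controls, with 0.23 ± 0.11 (adjusted p 0.0686), and Crem was called higher without Normal Control 1, Vehicle 5, Vehicle 6 or Vehicle 8 (adjusted p 0.0175 to 0.0488) and on both TPM scales (0.31 and 0.33, limma adjusted p at most 0.0187). The counts are per gene, so ICER and the longer forms were not separated.

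The promoters of these genes bear on the CREB end of the pathway, since CREB family factors bind the element TGACGTCA. RefSeq windows of 250 bases before a start, on build GRCr8, were available for 34 of the 47 members, 48 windows in all; the counts were made on mRatBN7.2, so the windows serve for sequence only. The full element, which reads the same on both strands, was found in 2 of the 48 windows, against 1.59% of all 33469 windows, and both belong to Crem. The shorter TGACGT, searched on both strands and contained in the full element, was found in 6 windows of 4 members (Crem, Pde10a, Pde4a and Pde4d), against 6.95% of all windows. The core TGACG, contained in both, was in 13 windows of 9 members, against 18.2% of all windows. The AP-1 element TGAGTCA was in 2 windows, of Pde6b and Rapgef3, against 4.05%. A match is a run of letters and not evidence of binding. The windows of Crem with the full element, and those of Pde10a and Pde4d, which were lower in Vehicle, are given 5′ to 3′ on the strand of the gene, with the TGACGTCA or TGACGT letters, or the reverse complement ACGTCA, in capitals.
Crem, the second of 3 starts, chr17:58984547-58984796, plus strand: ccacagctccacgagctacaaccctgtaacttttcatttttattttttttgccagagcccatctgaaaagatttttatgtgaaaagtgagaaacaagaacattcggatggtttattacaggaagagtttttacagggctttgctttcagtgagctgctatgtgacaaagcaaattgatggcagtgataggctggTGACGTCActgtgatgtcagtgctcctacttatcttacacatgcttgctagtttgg
Crem, last of 3 starts, chr17:58985240-58985489, plus strand: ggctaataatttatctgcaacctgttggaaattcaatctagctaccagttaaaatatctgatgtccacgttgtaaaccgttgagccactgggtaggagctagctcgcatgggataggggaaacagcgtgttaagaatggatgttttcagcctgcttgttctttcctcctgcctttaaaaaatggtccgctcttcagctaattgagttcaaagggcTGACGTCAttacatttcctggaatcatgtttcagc
Pde10a, last of 2 starts, chr1:54765669-54765918, minus strand: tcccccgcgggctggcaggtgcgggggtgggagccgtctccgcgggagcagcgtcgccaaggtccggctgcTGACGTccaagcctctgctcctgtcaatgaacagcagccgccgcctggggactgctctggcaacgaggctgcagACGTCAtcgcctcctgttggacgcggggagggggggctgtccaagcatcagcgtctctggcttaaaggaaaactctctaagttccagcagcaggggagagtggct
Pde4d, 1 of 5 starts, chr2:42592499-42592748, plus strand: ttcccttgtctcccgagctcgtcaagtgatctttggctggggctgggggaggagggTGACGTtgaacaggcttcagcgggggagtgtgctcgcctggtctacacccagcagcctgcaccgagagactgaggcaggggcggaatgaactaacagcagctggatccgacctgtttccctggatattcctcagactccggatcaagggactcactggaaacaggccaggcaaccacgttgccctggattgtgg

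Starts are counted by ascending chromosome position, so for Pde10a, on the minus strand, the last start is the more upstream. The Pde10a window holds 2 such runs, 1 on each strand. Crem was not called in Vehicle (0.23 ± 0.11), while Pde10a (-1.37 ± 0.39) and Pde4d (-0.74 ± 0.10) were lower. Pde4a, with the shorter element in 2 of its 4 windows, changed by -0.24 ± 0.08.

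A further 7 lists of other genes of the pathway, 123 symbols of which 105 were tested, were followed beside the members. In Vehicle 17 of the 105 were higher and 47 lower, where 26.9% and 27.1% of all tested genes were so called. Among 16 G proteins and their regulators 2 were higher, the inhibitory subunits Gnai3 (0.62 ± 0.08) and Gnai2 (0.34 ± 0.06), and 10 were lower, among them Rgs4, which shortens inhibitory G protein signals (-0.98 ± 0.11), and Gnb5 (-0.63 ± 0.08). Of 22 receptors that act on cyclases 3 were higher and 12 lower. The prostaglandin E2 receptors Ptger4 (1.66 ± 0.40) and Ptger2 (1.10 ± 0.28) rose, and the PACAP receptor Adcyap1r1 (-1.03 ± 0.08) and the serotonin receptor Htr7 (-1.54 ± 0.22) fell; all 4 couple to the stimulatory G protein. Of 18 anchors, inhibitors and substrates of PKA 2 were higher, the PKA inhibitor Pkig (0.42 ± 0.09) and the anchor Akap13 (0.33 ± 0.08), and 3 were lower, with Ppp1r1a at -0.46 ± 0.09 and Pde4dip, an anchoring protein, at -0.27 ± 0.06, the last not called on TPM (adjusted p 0.126).

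The list of CREB target genes leaned furthest toward lower levels, with 2 of 22 higher, 14 lower and a median log2 fold change of -0.74. Nr4a3, an activity-induced nuclear receptor, changed by -2.15 ± 0.14, Egr1 by -1.61 ± 0.11, Arc by -2.24 ± 0.23 and Bdnf by -1.81 ± 0.20; Arc and Bdnf were named after their values were seen. Gadd45b, a stress-induced gene (1.38 ± 0.16), and Fos (0.49 ± 0.16, adjusted p 0.0101) were the 2 that rose. These genes answer to many signals besides CREB. Among 13 partners and kinases of CREB 3 were higher and 5 lower, with Creb3l1 at 0.81 ± 0.17, Rps6ka1 at 0.39 ± 0.08, Sik3, a kinase that PKA inhibits, at -0.45 ± 0.05 and Crebl2 at -0.31 ± 0.06. In the cGMP branch 2 of 9 were higher and 3 lower. The nitric oxide synthases Nos2 (6.75 ± 0.86, from a mean of 0.361 to 40.0 CPM) and Nos3 (1.01 ± 0.10) rose. The cGMP-dependent kinase Prkg2 (-1.55 ± 0.23) and the natriuretic peptide receptor Npr1 (-0.52 ± 0.11) fell. Nos2 is in the counts of higher genes, but like Pde6b it passed the filter on low counts only through the injured libraries. The size of its change rests on controls near 0. Of 5 other effectors and exporters 3 were higher, among them the Epac target Rap1b (0.65 ± 0.06) and the cAMP exporter Abcc4 (0.27 ± 0.10), whose call was lost without Normal Control 8, Vehicle 2 or Vehicle 5 (adjusted p up to 0.0684).

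The next comparison asks what the agonist changed in wounded brain. No member (0 of 43) was called between SKF and Vehicle by edgeR, as was no other of the 14421 tested genes (0%). DESeq2 called 6 genes and 0 members. At an unadjusted p under 0.05, without any correction, 1 member passed, against 4.96% of all tested genes. The median log2 fold change of the members was 0.01 and their median size was 0.07, the same as for all genes to 2 decimals, and 25 of 43 were positive. For 0 members did the 2 groups not overlap, against 0.0139% of all tested genes. The intervals limit what could have gone unseen. For 42 of 43 members the 95% interval lay within 1 log2 unit of no change, for 31 within 0.5 and for 13 within 0.25. The exception at 1 log2 unit was Pde6b, with few reads (0.35 ± 0.43, interval from -0.53 to 1.23).

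Adcy4 was the member with an unadjusted p under 0.05. Its SKF libraries ranged from 8.40 to 12.0 CPM with a median of 9.95, against 9.52 to 18.0 CPM with a median of 13.5 in Vehicle, and the groups overlapped. The log2 fold change was -0.39 ± 0.13 (interval from -0.65 to -0.13, unadjusted edgeR p 0.00522, adjusted p 0.838). Pde5a, which hydrolyses cGMP, followed at -0.25 ± 0.14, with 4.62 to 8.41 CPM (median 6.51) in SKF and 5.89 to 10.2 CPM (median 7.94) in Vehicle. Atf1 was at -0.12 ± 0.09, with medians of 26.2 and 28.2 CPM. Upward, the smallest unadjusted p values belonged to Prkar1b (0.12 ± 0.07), Adcy10 (0.33 ± 0.19) and Prkar2a (0.11 ± 0.07). Adcy10 ranged from 4.45 to 6.48 CPM in SKF (median 5.07) and from 2.45 to 5.85 CPM in Vehicle (median 4.27), and overlapped. Prkar1b ranged from 407 to 546 CPM in SKF (median 457) and from 327 to 468 CPM in Vehicle (median 451). Prkar2a ranged from 23.1 to 30.5 CPM in SKF (median 25.6) and from 22.3 to 27.0 CPM in Vehicle (median 23.1). The smallest adjusted p among these 6 was the 0.838 of Adcy4.

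**Figure D5:**
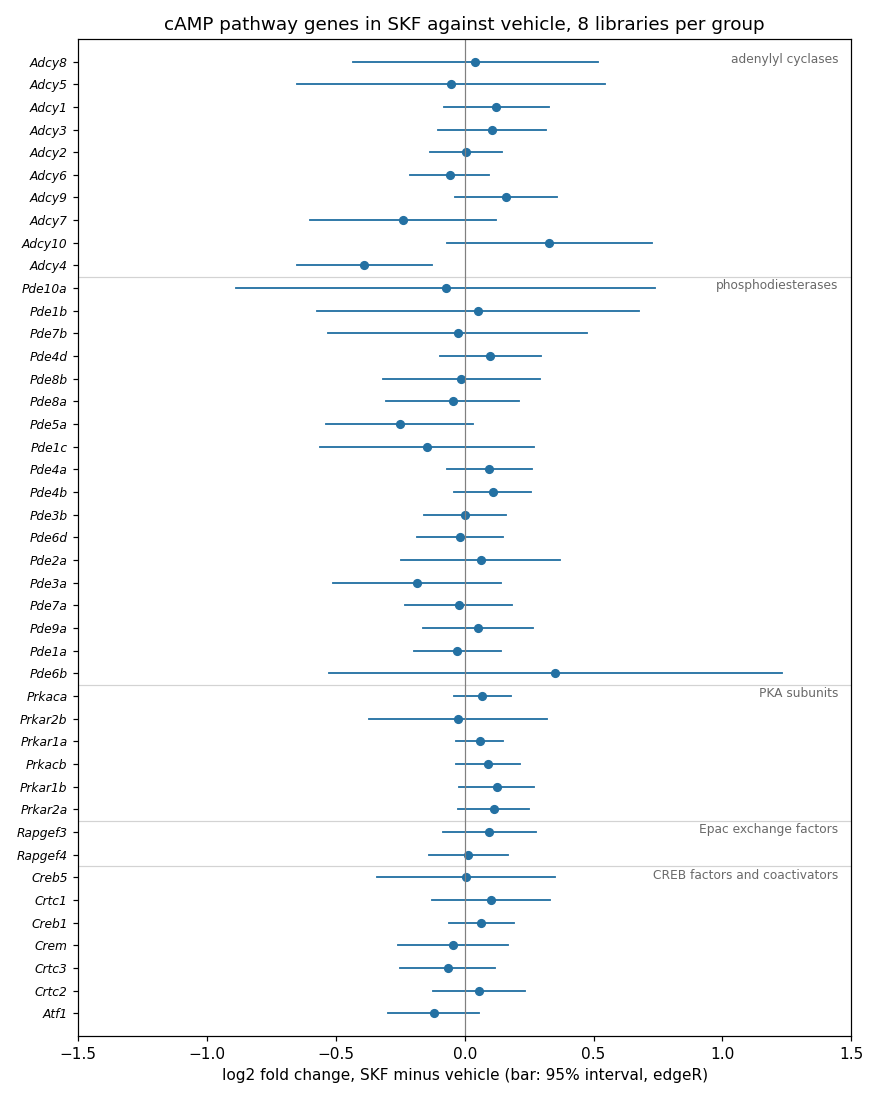
Log2 fold change of SKF minus Vehicle (x axis) for the 43 tested members (y axis, by role), 8 libraries per group; bars are 95% intervals from edgeR. All intervals but that of Adcy4 cross 0, and that of Pde6b alone extends past 1.

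Of the genes on the receptor's own route in the striatum, Adcy5 had a log2 fold change of -0.05 ± 0.29 in SKF against Vehicle (interval from -0.65 to 0.54) and Pde10a of -0.07 ± 0.39 (from -0.89 to 0.74). Prkaca at 0.07 ± 0.05 (from -0.04 to 0.18) and Prkar1a at 0.06 ± 0.04 (from -0.03 to 0.15) were measured more tightly, and 5 of 6 PKA subunits had a positive value. Creb1 stood at 0.06 ± 0.06 and Crem at -0.05 ± 0.10. Rapgef3 stood at 0.09 ± 0.09 and Pde4b at 0.11 ± 0.07. Among the 105 other pathway genes 0 were called by edgeR and 7 had an unadjusted p under 0.05. Nos2 was 1 of these, with means of 12.4 CPM in SKF and 40.0 CPM in Vehicle (-1.68 ± 0.55, adjusted p 0.838), and Npas4, a CREB target, another (-0.82 ± 0.32, adjusted p 0.895); both were named after their values were seen. Of 7 tested neutrophil markers 0 were called, 0 had a positive value and 4 had an unadjusted p under 0.05, with summed ranges of 116 to 250 CPM in SKF and 130 to 277 CPM in Vehicle. Of 10 tested markers of blood-derived monocytes and macrophages 0 were called, 1 had a positive value and 6 had an unadjusted p under 0.05, with sums of 234 to 405 CPM in SKF and 283 to 400.2 CPM in Vehicle. For the 7 endothelial markers these counts were 0, 2 and 2, with sums of 251 to 322 CPM and 271 to 399 CPM. For the 7 general leukocyte markers they were 0, 0 and 0, with sums of 294 to 400 CPM and 319 to 465 CPM. The 3 tested T and NK cell markers had 0, 0 and 0. Both the 9 tested microglia markers and the 8 markers of pericytes and smooth muscle had 0, 1 and 1. The part of these cells in the value of Adcy4 was not tested.

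SKF against Normal Control, the third comparison, uses the same 8 control libraries as the first, so the 2 sets of values are not independent and stand side by side only. Among the members 11 were higher and 17 lower, where 50.2% of all tested genes were called, 25.5% higher and 24.7% lower. Pde6b is among the 11, as among the non-overlapping and 2-fold higher members below, though it was tested only through the injured libraries. A fit of SKF and Normal Control alone leaves it out. There 10 of 42 members were higher and 17 lower (50.1% of all genes called). The higher genes were Pde6b at 4.98 ± 0.68 (4.63 in Vehicle), Adcy10 at 1.40 ± 0.21 (1.07), Adcy4 at 1.16 ± 0.14 (1.55), Adcy7 at 0.67 ± 0.18 (0.91), Crtc2 at 0.49 ± 0.09 (0.43), Pde1a at 0.47 ± 0.08 (0.50), Atf1 at 0.43 ± 0.09 (0.55), Adcy9, Pde9a, Prkar2a and Creb1. Every SKF library exceeded every control for 5 members (11.5% of all genes) and lay below every control for 5 (7.11%), and at 2-fold or more 3 were higher and 4 lower (6.74% and 3.34% of all genes), the 4 becoming 1, Adcy8, without Normal Control 6 (3.47% of all genes). The lower genes were led by Adcy8 at -1.73 ± 0.22 (-1.77), Pde10a at -1.45 ± 0.39 (-1.37), Pde1b at -1.07 ± 0.30 (-1.12), Pde7b at -1.06 ± 0.24 (-1.03), Adcy5 at -0.86 ± 0.29 (-0.80) and Pde8b at -0.70 ± 0.15 (-0.68). Without Normal Control 6 the values were -0.79 for Pde10a, -0.56 for Pde1b, -0.81 for Pde7b, -0.52 for Pde8b and -0.41 for Adcy5 (adjusted p 0.0526). Prkaca was at -0.45 ± 0.05 (-0.52), Prkar1a at -0.25 ± 0.04 (-0.31) and Rapgef3 at -0.40 ± 0.09 (-0.49).

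Some members were called against Normal Control in 1 of the 2 injured groups. Adcy9 (0.28 ± 0.10 in SKF, 0.12 in Vehicle), Creb1 (0.18 ± 0.06 and 0.12), Prkar2a (0.22 ± 0.07 and 0.11), Pde9a (0.26 ± 0.10 and 0.21) and Pde5a (-0.53 ± 0.14 and -0.28) were called in SKF and not in Vehicle, while Prkacb, Prkar1b, Pde4a and Crtc3 were called in Vehicle and not in SKF. This split varied with the setting. On both TPM scales Creb1, Prkar2a and Pde9a were called in Vehicle too and Crtc3 in SKF, and Prkacb, Prkar1b and Pde4a were not called in Vehicle. Pde5a was called in Vehicle with sample weights, without Vehicle 2, and without Normal Control 4 and 6 (adjusted p 0.0215 to 0.0468), and Pde9a without Normal Control 6 or Vehicle 3. Adcy9 lost its SKF call without SKF 3 (adjusted p 0.0511). Creb1 lost its SKF call without SKF 6 (adjusted p 0.0534) and without Normal Control 4 and 6 (adjusted p 0.0615), and Pde9a lost its own without any 1 of 8 libraries (Normal Control 1, 2, 5 or 8 or SKF 2, 3, 4 or 8; adjusted p 0.0574 to 0.0905). The difference between SKF and Vehicle itself was called for 0 of these 9 genes. Some members called in neither injured group were called in SKF under other settings. Prkar2b was lower in 7 of 34 alternatives, among them DESeq2 (-0.40, adjusted p 0.027). Crem and Pde7a were higher on both TPM scales (limma adjusted p 0.041 to 0.046). Pde1c was lower without SKF 5 (-0.51, edgeR adjusted p 0.0398).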

How the data were processed

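RNA of 24 rat brain libraries was selected for poly(A) and prepared with a directional kit, per the labels' protocols. The authors deposited raw read counts per gene and, for the same genes and libraries, TPM values; reads were aligned to mRatBN7.2 per the submitters' processing notes. The aligner, counter, strand setting and annotation used are named in no source used here. Groups were read from sample titles. The main test of the deposited counts was edgeR's quasi-likelihood test (version 4.0.16, R 4.3.3) with TMM scaling, filterByExpr and robust dispersion. It used 1 fit of the 3 groups (21 residual degrees of freedom), and p-values were adjusted by Benjamini-Hochberg over 14421 genes. The test was checked on simulated counts. Total counts of 8911339 to 12383368 per library set the precision. The deposited TPM values served for levels between genes and for an alternative test in limma 3.58.1 with pseudocounts of 1 and 0.1. The other alternatives were DESeq2 1.42.0, RLE scaling, other filters, 2 groups alone, sample weights, a replicate block, and leaving out libraries. The members and lists were chosen with earlier results of these data known. Values by library were given for the 6 largest rises and 6 largest falls in Vehicle, the 3 smallest p in each direction in SKF against Vehicle, and a fixed set of 11 genes (Adcy5, Pde10a, Pde1b, Pde4b, Prkaca, Prkacb, Prkar1a, Prkar2b, Creb1, Crem and Rapgef3). From each of the 7 other lists the 2 genes with the smallest adjusted p in each direction were named. Cell type markers came from 12 lists. No 2 libraries of a group were identical, and counts of every pair differed beyond sampling noise. Promoter windows came from RefSeq, build GRCr8.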

Additional observations from a re-analysis of the deposited data

Results flagged for a closer look

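In each group of 8 libraries a member was marked when its highest or lowest library stood off from the rest by more than Dixon's 95% critical value. Of 129 gene and group sets 18 were marked, and chance alone marks about 1 in 20. The marks gather in a few libraries. Normal Control 6 was the highest library for 10 marked members. It had 1020.05 CPM of Adcy5 against 316 CPM in the next control, 446 CPM of Pde10a against 107, 939 CPM of Pde1b against 265 and 746 CPM of Pde2a against 362. It also had 59.3 CPM of Pde7b against 31.6, 76.0 CPM of Pde8b against 41.4, 165 CPM of Prkar2b against 87.2, 145 CPM of Adcy3 against 82.6, 129 CPM of Crtc1 against 97.8 and 79.2 CPM of Pde4b against 63.1. SKF 8 was highest in its group for 3 of the same genes, with 306 CPM of Adcy5 against 209, 78.1 CPM of Pde10a against 47.8 and 208 CPM of Pde1b against 149. Both libraries had the highest summed striatal markers of their groups, 6661 CPM in Normal Control 6 and 2179 CPM in SKF 8. The other marks fell singly. Adcy2 had 126 CPM in SKF 3 against 103 in the next SKF library. Adcy8 had 3.88 CPM in Vehicle 1, the lowest, against 8.54 in the next. Crtc3 had 10.1 CPM in Normal Control 2, the lowest, against 11.4. Pde6b had 0.371 CPM in Normal Control 5 against 0.108, and 6.03 CPM in Vehicle 1 against 2.85.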

How the results depend on the processing

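The counts of called members and of called genes over the 7 other pathway lists together were recomputed under 34 alternatives in each comparison, as were the fold changes of all 43 tested members and 28 named other genes in Vehicle, of the 43 in SKF against Normal Control, and of 23 named members and 2 other genes in SKF against Vehicle (33 alternatives for Pde6b against Normal Control, which could not be fitted in 1). The other 20 members in SKF against Vehicle and the marker lists were not recomputed. The counts of called members stayed within 1.5 times except that 13 members, not 8, were higher in Vehicle on both TPM scales. On these scales 69.5% and 70% of all called genes were higher. Members lower by at least 2-fold, a count recomputed after seeing the data, fell from 4 to 1 with sample weights and without Normal Control 4 and 6 in both injured groups, to 2 in Vehicle on both TPM scales and to 1 in SKF on log2(TPM + 1). Leaving out 1 library gave 1 to 4 in both, with 1 only without Normal Control 6. Leaving out 1 library at a time gave 7 to 9 members higher and 17 to 20 lower in Vehicle, 9 to 12 and 16 to 18 in SKF against Normal Control, and 0 in SKF against Vehicle. Uncalled members near 0 changed sign. On TPM this held in Vehicle for Pde4b (0.047 with a pseudocount of 1 and 0.049 with 0.1), Pde2a (0.14 on both), Pde3b (0.051 and 0.055) and Pde6d (0.045 on both), and in SKF against Normal Control for Prkar1b (0.056 on both), Adcy6 (0.071 and 0.073), Pde3b (0.029 and 0.032) and Pde6d (0.010 on both). With sample weights Adcy6 turned to -0.0095 and Pde2a to 0.10 in Vehicle, and without Normal Control 4 and 6 to -0.0099 and 0.17. Leaving out 1 library gave ranges across 0 in Vehicle for Adcy6 (-0.030 to 0.056), Pde2a (-0.10 to 0.17) and Pde3a (-0.037 to 0.090), and in SKF against Normal Control for Pde2a (-0.040 to 0.23). In the latter comparison Pde2a was called higher without Normal Control 6 (0.23, edgeR adjusted p 0.0240). It was also called there without Normal Control 4 and 6 (0.23, edgeR adjusted p 0.0374). In SKF against Vehicle, where no member was called, Crem turned to 0.014 with sample weights, and of the 23 members recomputed leave-one-out values crossed 0 for Adcy5 (-0.17 to 0.079), Adcy8 (-0.071 to 0.12), Crem (-0.10 to 0.018), Pde10a (-0.23 to 0.059), Pde1a (-0.079 to 0.021), Pde1b (-0.042 to 0.15), Pde7b (-0.14 to 0.069) and Prkar2b (-0.085 to 0.037). Adcy5 in Vehicle lost its call on both TPM scales, with 2 groups alone, with the replicate block, and without Normal Control 6 (alone or with Normal Control 4), and Creb5 on log2(TPM + 0.1) (adjusted p 0.0508). Replicate numbers recur in the groups. In any comparison 0 of 8 same-numbered pairs had deviations correlated above 0.1, and 0 of 8 Vehicle libraries correlated best with their own number. These correlations run over all tested genes, so they cannot exclude a smaller effect shared by libraries of the same number. With the replicate block 9 members were higher and 17 lower in Vehicle, 11 and 17 in SKF against Normal Control and 0 in SKF against Vehicle. With it Crem was called in Vehicle (0.21, adjusted p 0.0392) and Prkar1b was not (adjusted p 0.0739); the cause of each change was not tested. At these depths 4 photoreceptor phosphodiesterases fell under the filter on low counts.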
